A study of Sorghum bicolor with 8 samples.

Results

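Chromosome 5 of sorghum was described by the expression of its genes in 3 types of callus and in leaves. A gene was taken when its deposited locus lay on chromosome 5 and it had at least 1 FPKM (fragments per kilobase, normalized to the number of fragments in the library) in at least 2 of 8 libraries. By that rule 1249 of the 2436 deposited loci of the chromosome were included, out of 23166 of 34129 loci in the whole data set. The rule used only position and a minimum level, and it favoured no group of samples by name. A gene could nevertheless pass through the group where it was high, so counts and medians over the genes that passed are descriptions, and the shares of all deposited loci carry the comparison with the other nine chromosomes.

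Callus is a mass of dividing, unorganised plant cells kept in culture. All material came from the wild-type line Hiro-1, and the callus was induced from immature embryos of 1 to 2 mm, taken 13 to 15 days after flowering and held for 3 weeks in the dark at 25 °C on induction medium. Callus I, Callus II and Callus III were then separated and subcultured for 20 days, while the Leaf samples were leaves regenerated from Callus II after a move to differentiation medium, with a day of 16 h of light (2000 lx) and 8 h of dark. Each group had 2 libraries, which the labels call biological replicates without saying whether they came from separate cultures. The p-values therefore measure the spread between these libraries, which may be technical. What sets the callus types apart is not described by the labels beyond their names and their differing capacity to regenerate. The files pair no gene identifier with a name, so the tissue labels could not be checked against marker genes, and no function is given for any gene. Leaf differed from callus in tissue, light and medium at once, and these cannot be told apart. In bulk RNA, fewer cells of a type and less RNA per cell cannot be told apart either.

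As background, the genes of a sorghum chromosome are dense in the arms and sparse in the heterochromatin around the centromere, where transposable elements prevail. Chromosomes 5 and 8 are the copies of one ancestral chromosome, kept from a whole-genome duplication that the grasses share, and they correspond to a pair of rice chromosomes. Chromosome 5 is also known for its many clustered genes of the NBS-LRR type, the intracellular receptors of plant disease resistance.

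Sums of FPKM per library ran from 595109 to 737291 and genes above 0 from 24497 to 26787, with the highest numbers of genes in Leaf, whose part in the results was not tested. No libraries held identical values. Read totals are not given, so the depth behind each value is unknown and no counting interval is given.

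Fewer loci were expressed on chromosome 5 than on any other chromosome, in every library. Of its deposited loci 51.3% met the rule, against 69.2% on the other nine chromosomes together and 62.2% on chromosome 8, the next lowest. Loci listed at 0 in all 8 libraries numbered 519 (21.3%), against 9.75% on the other nine and 13.1% on chromosome 8. Gene spacing did not set the chromosome apart from chromosome 8, with 33.9 loci per Mb on chromosome 5 and 32.3 on chromosome 8, while chromosome 1 had 70.8. Locus length was close to that elsewhere, with a median of 3551 bp for included genes and 1611 bp for the remaining loci, against 3512 and 1627 bp on the other nine. Loci that overlap another made up 12.7% of the included genes and 12.5% of those on the other nine. At the threshold, the second-highest FPKM over the libraries was 1.0008 in the included gene closest to it and 0.9914 in the closest excluded gene.

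The shortfall was smaller in Callus I and Leaf than in Callus II and Callus III. Of all 2436 loci, 39.7% and 38.0% stood at 1 FPKM or more in the libraries of Callus I, 35.8% and 35.6% in those of Callus II, 32.6% and 34.9% in those of Callus III, and 39.7% and 40.2% in those of Leaf. The same shares on the other nine chromosomes were 55.6% and 53.8%, 55.7% and 55.8%, 53.7% and 56.3%, and 57.04% and 57.3%. On chromosome 5 the libraries of Callus II and Callus III all lay below those of Callus I and Leaf, whereas on the other nine both Callus I libraries lay below those of Callus II, and Callus III overlapped both.

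Within each library, the share on chromosome 5 minus the share on the other nine was -15.8 ± 0.07 percentage points in Callus I, -20.1 ± 0.23 for Callus II, -21.3 ± 0.23 for Callus III and -17.2 ± 0.16 in Leaf (mean ± SD, n = 2 each). No groups overlapped. The range of 5.43 points between group means exceeded the spread between replicates in an exact permutation test over all ways of dividing 8 libraries into 4 groups of 2 (p = 0.00952, the smallest this design allows; Benjamini-Hochberg adjusted p = 0.0381 over 5 measures of the chromosome). With 2 libraries against 2, a permutation test of a single pair of groups cannot go below 0.333 on 2 sides, so no pair was tested alone.

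**Figure D1:**
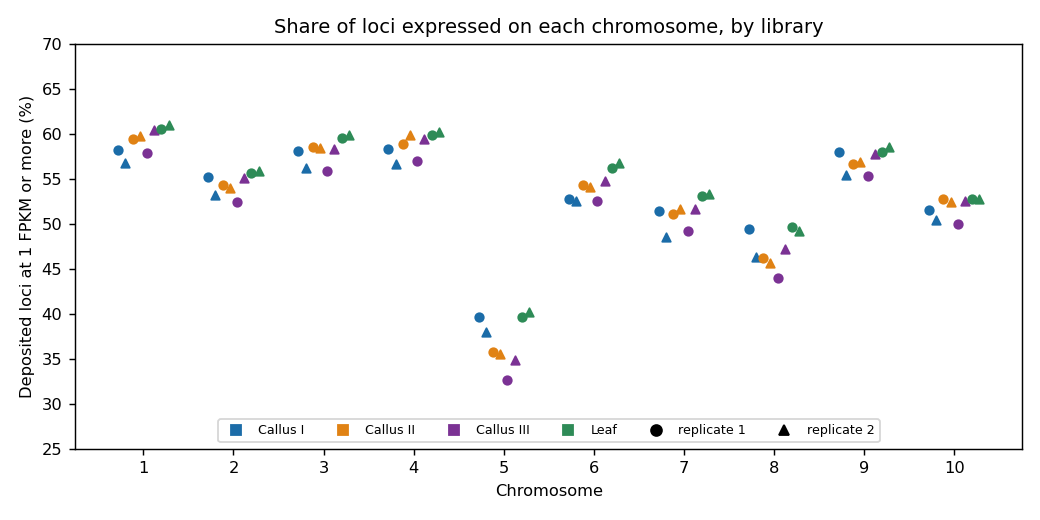
Percent of all deposited loci at 1 FPKM or more on each of the 10 chromosomes, with 1 point per library. Chromosome 5 is the lowest of the 10 in all 8 libraries, and its Callus II and Callus III libraries, at 32.6% to 35.8%, lie below those of Callus I and Leaf, at 38.0% to 40.2%.

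The same measure was computed for each chromosome against the other nine. The range between group means was 2.81 points on chromosome 8 (exact permutation p = 0.0476, adjusted over the 10 chromosomes 0.0794), with the least negative value in Callus I as on chromosome 5. It was 2.12 points on chromosome 1, where the value was lowest in Callus I and highest in Callus III (adjusted p = 0.0317), and 0.646 to 1.62 points on the remaining chromosomes, of which chromosome 10 (adjusted p = 0.0317) and chromosome 3 (adjusted p = 0.0476) passed. The split of groups seen on chromosome 5 was also seen on chromosome 8. Its libraries of Callus I (-5.35 and -6.77) and Leaf (-6.53 and -7.25) lay above those of Callus II (-8.53 and -9.21) and Callus III (-8.76 and -7.98). Taken against chromosome 8 alone, chromosome 5 stood at -9.71 and -8.28 points in the libraries of Callus I, -10.5 and -10.2 in those of Callus II, -11.3 and -12.4 in those of Callus III, and -9.96 and -9.07 in those of Leaf. The groups Callus I and Leaf overlapped there, and the 4 groups differed beyond the spread between replicates (exact permutation p = 0.0381, not adjusted).

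Loci were also counted by the groups that shared them, as descriptions over all deposited loci. On chromosome 5, 1103 loci (45.3%) were under 1 FPKM in all 8 libraries, against 27.9% on the other nine. Lower shares on chromosome 5 follow in part from that and are not read as a different pattern of sharing. Loci at 1 FPKM or more in both libraries of every group numbered 563 (23.1% of loci, against 41.1% on the other nine). Loci at that level in both Callus I libraries and under it in all 6 other libraries numbered 81 (3.33% against 2.37%). The corresponding counts were 25 for Callus II (1.03% against 1.30%), 14 for Callus III (0.575% against 1.00%) and 122 for Leaf (5.01% against 4.03%). Callus I and Leaf alone shared 36 loci (1.48% against 0.950%), and Callus II and Callus III alone shared 14 (0.575% against 0.814%).

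The genes that were included were also of lower abundance than included genes elsewhere. Their median was 4.29 and 3.77 FPKM in the libraries of Callus I, 3.64 and 3.68 in those of Callus II, 2.46 and 3.18 in those of Callus III, and 4.19 and 4.28 in those of Leaf. On the other nine chromosomes the medians were 7.03 and 6.76, 8.06 and 8.06, 5.55 and 6.52, and 7.24 and 7.26 FPKM. On the log2(FPKM + 1) scale the median on chromosome 5 minus that on the other nine averaged -0.65 in Callus I, -0.96 for Callus II, -0.89 for Callus III and -0.66 for Leaf, and the median was the lowest of the 10 chromosomes in all 8 libraries. These group means spanned 0.31, given as a description because a gene could meet the filter through the group where it was high. When only genes averaging 5 FPKM or more were kept the difference between Callus I and Callus II was -0.0477, in the other direction.

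The summed FPKM of the chromosome was ordered otherwise, and a few genes carried much of it. Chromosome 5 held 6.54% and 6.74% of all FPKM in the libraries of Callus I, 3.03% and 3.51% in those of Callus II, 4.25% and 4.14% in those of Callus III, and 4.22% and 4.15% in those of Leaf. Callus I stood above all other groups, Callus II below them, and Callus III and Leaf overlapped (range of means 3.37 points, exact permutation adjusted p = 0.0381, and 0.0571 without Leaf replicate 2, where the range was the same 3.37 points). The 10 most abundant genes of the chromosome made up 61.6% and 62.8% of its sum in the libraries of Callus I, 28.9% and 31.8% in those of Callus II, 57.2% and 51.5% in those of Callus III, and 31.8% and 33.4% in those of Leaf. When the 10 highest loci of each chromosome were left out, a setting chosen after seeing the data, chromosome 5 held 3.45% and 3.32% in the libraries of Callus I, 3.00% and 3.00% in those of Callus II, 3.19% and 3.27% in those of Callus III, and 3.57% and 3.56% in those of Leaf. Leaf was then the highest group, and the range of means was 0.39 points.

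Sobic.005G099000.v3.2 (16194573 to 16195808) was the most abundant gene of the chromosome in Callus I and Callus II. It stood at 14978 and 19778 FPKM in the libraries of Callus I, 2667 and 3854 in those of Callus II, 1205 and 1735 in those of Callus III, and 5.31 and 5.75 in those of Leaf. The 4 groups did not overlap, and the gene alone made up 32.3% and 44.9% of the chromosome's FPKM sum in the libraries of Callus I. Between Leaf and Callus II it fell by 8.94 ± 0.28 on the log2(FPKM + 1) scale (SE; limma, Benjamini-Hochberg adjusted p = 5.95e-07).

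Next in Callus I came Sobic.005G228700.v3.2 (71599142 to 71600181), at 9750 and 4365 FPKM in the libraries of Callus I, 549 and 315 in those of Callus II, 277 and 470 in those of Callus III, and 2339 and 2153 in those of Leaf. Callus II and Callus III overlapped, and Callus I replicate 1 was far above replicate 2. In Callus III the place of the most abundant gene was taken by Sobic.005G165700.v3.2 (64214230 to 64216294), which made up 38.1% and 31.3% of the chromosome's sum there and at most 0.000554% in any other library. Callus III exceeded Callus I by 13.26 ± 0.15 and Callus II by 13.30 ± 0.15 (limma adjusted p = 1.61e-07 and 1.74e-07).

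The genes next in abundance in Callus II varied less between groups. Sobic.005G112800.v3.2 (40185844 to 40188679, in the gene-poor middle of the chromosome) had 449 and 188 FPKM in the libraries of Callus I, 486 and 459 in those of Callus II, 414 and 473 in those of Callus III, and 458 and 521 in those of Leaf. Except for Callus I replicate 2, its libraries lay in one band. Sobic.005G145201.v3.2 (61041785 to 61045001) had 393 and 273 FPKM in the libraries of Callus I, 422 and 522 in those of Callus II, 393 and 406 in those of Callus III, and 101 and 102 in those of Leaf, so that Leaf lay below every callus library.

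**Figure D2:**
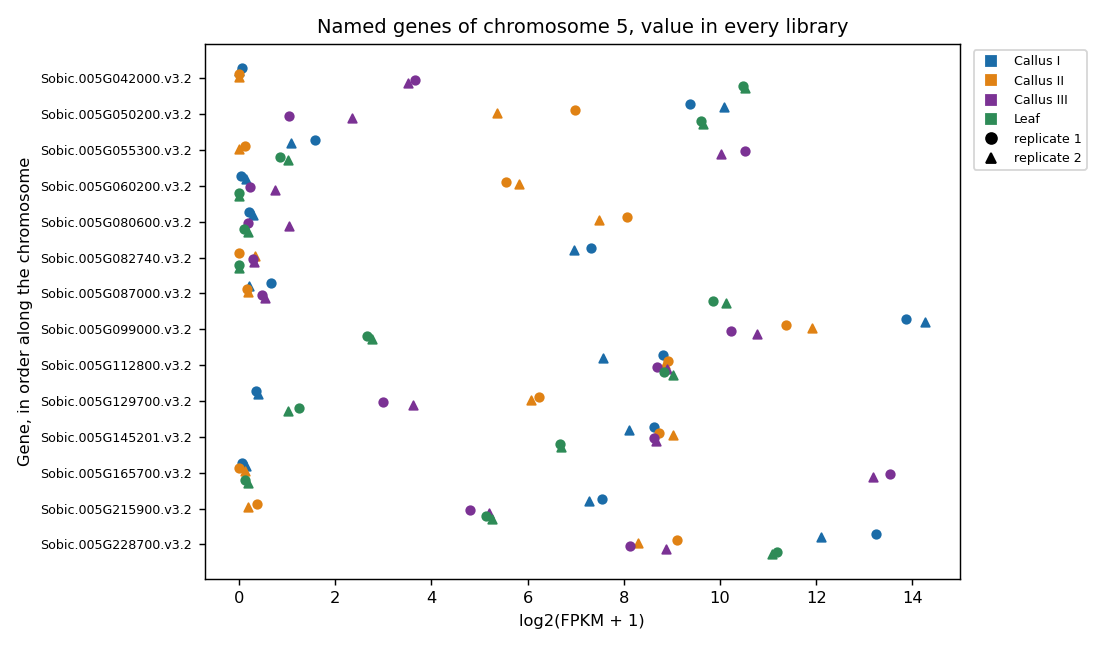
Level of the 14 named genes of chromosome 5 in every library, as log2(FPKM + 1), ordered from the start to the end of the chromosome, with color for the group and marker shape for the replicate. Sobic.005G099000.v3.2 is highest in Callus I and lowest in Leaf, and Sobic.005G165700.v3.2 is high in both Callus III libraries alone.

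Along the chromosome, a left arm up to 19 Mb, a gene-poor central stretch of 33 Mb from 19 to 52 Mb and a right arm beyond it were compared. The central stretch is the longest run of 1 Mb windows with a smoothed density under 20 loci per Mb, and only positions were used to define it. It held 198 loci, of which 108 (54.5%) met the rule, against 57.7% in the central stretches of the other nine chromosomes. In the arms 51.0% of loci met it, against 69.9% on the other nine. The left arm had 608 of 1083 loci (56.1%) and the right arm 533 of 1155 (46.1%).

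Callus I stood further above the other callus types in the left arm than in the right arm. Its share of loci at 1 FPKM or more was 46.3% and 44.5% in the libraries of Callus I, 40.8% and 40.3% in those of Callus II, 35.8% and 39.2% in those of Callus III, and 42.9% and 43.7% in those of Leaf. In the right arm the shares were 33.2% and 32.1%, 31.4% and 31.2%, 29.0% and 30.3%, and 35.2% and 35.3%. In both arms Callus I lay above Callus II and Callus III without overlap, and Leaf was the highest group in the right arm only. This contrast of the arms was not tested.

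In the central stretch Leaf stood above all callus, with 48.0% and 49.5% of loci at 1 FPKM or more against 33.3% to 41.9% in the callus libraries. On the other nine chromosomes the central share was also highest in Leaf, at 49.5% and 49.8% against 42.2% to 46.3% in callus. The central share of chromosome 5 was thus near that of the other nine in Leaf and below it in callus, to a differing extent. It was 33.3% and 35.4% against 44.7% and 44.4% in Callus II, and 36.4% and 37.4% against 43.7% and 46.3% in Callus III. In Callus I it was 41.9% and 36.9% against 45.0% and 42.2%, so replicate 1 was only a little below. By median level of included genes, the central stretch minus the arms was -0.10 and -0.16 in the libraries of Callus I, 0.16 and 0.31 in those of Callus II, 0.45 and 0.40 in those of Callus III, and 0.37 and 0.54 in those of Leaf on the log2(FPKM + 1) scale. Callus I was the only group with values below 0. The group means spanned 0.58, or 0.30 among genes averaging 5 FPKM or more. Less the same contrast on the other nine chromosomes they spanned 0.39, and the direction changed without overlapping loci (-0.0465) and with no filter on low values (-0.11). These medians over filtered genes are descriptions.

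**Figure D3:**
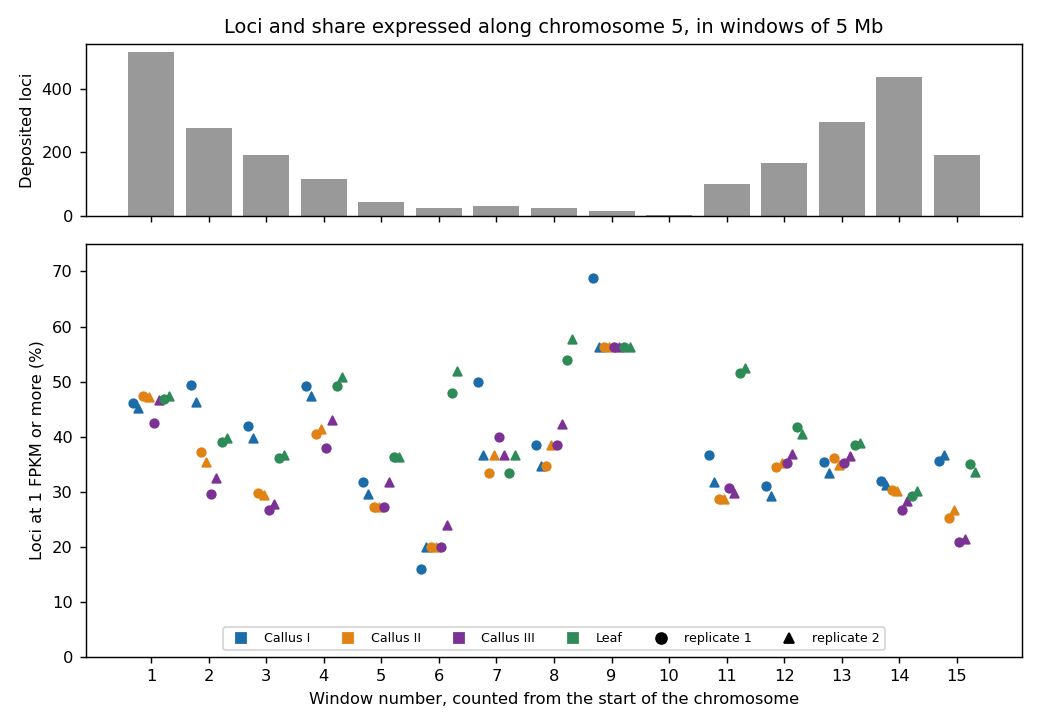
Number of deposited loci in windows of 5 Mb along chromosome 5 (upper panel, bars), and the percent of all deposited loci at 1 FPKM or more in each window for the 8 libraries (lower panel, points). Callus I lies above Callus II and Callus III in windows 2, 3 and 15 among others, and Leaf lies above all callus in windows such as 6, 8, 11 and 12; window 10, with 2 loci, is not drawn in the share.

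In windows of 5 Mb, the share of all deposited loci at 1 FPKM or more, less that on the other nine chromosomes, differed across groups in 6 of 14 windows (exact permutation adjusted p = 0.0222 in each), in a setting chosen after seeing the data. From 5 to 10 Mb (277 loci) the share was 49.5% and 46.2% in the libraries of Callus I, 37.2% and 35.4% in those of Callus II, 29.6% and 32.5% in those of Callus III, and 39.0% and 39.7% in those of Leaf. From 10 to 15 Mb (191 loci) it was 41.9% and 39.8%, 29.8% and 29.3%, 26.7% and 27.7%, and 36.1% and 36.6%. Both windows had the order Callus I, Leaf, Callus II, Callus III, with no overlap.

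The last window, from 70 Mb to the end (191 loci), had shares of 35.6% and 36.6% in the libraries of Callus I, 25.1% and 26.7% in those of Callus II, 20.9% and 21.5% in those of Callus III, and 35.1% and 33.5% in those of Leaf. Callus I and Leaf were thus again above Callus II and Callus III. A different order was found from 50 to 55 Mb (101 loci), where Leaf had 51.5% and 52.5% against 28.7% to 36.6% in callus, and from 55 to 60 Mb (168 loci), where Leaf had 41.7% and 40.5% and Callus I the lowest shares, 31.0% and 29.2%.

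The window from 20 to 25 Mb (44 loci), the sixth that passed, had 36.4% in both Leaf libraries against 27.3% to 31.8% in callus. The callus groups overlapped in these shares and separated only when the share on the other nine was subtracted. With 44 loci, a few loci decide such differences. From 25 to 30 Mb (25 loci) the share was 48.0% and 52.0% in the Leaf libraries against 16.0% to 24.0% in callus (adjusted p = 0.0933). In the most gene-rich window, from 0 to 5 Mb, 42.5% to 47.4% of the 515 loci reached 1 FPKM (adjusted p = 0.178), with Callus III replicate 1 the lowest.

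Gene by gene, Callus II was compared with Callus I, which asks how callus types of the same explant and medium differ. Of 1249 genes tested, 775 passed limma at a Benjamini-Hochberg adjusted p under 0.05 over all 23166 genes, 404 higher and 371 lower in Callus II. That is 62.0%, near the 64.5% over all genes. In the genome 39.1% of genes were higher and 25.4% lower, and on chromosome 5 the calls were more evenly divided, with 52.1% of them higher against 61.1% on the other nine chromosomes. Taken singly, these ran from 54.8% on chromosome 9 to 66.4% on chromosome 1, with 56.3% on chromosome 8. Under median-ratio scaling the split was 304 higher and 447 lower, and with no filter 422 and 458, so the majority direction on chromosome 5 depends on both choices, whereas under median-ratio scaling the share of higher calls was still below that of the other nine (40.5% against 48.2%). The median log2 difference was -0.18 relative to that of all genes, which was 0.18.

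Sobic.005G215900.v3.2 (70178432 to 70179460) was at 187.0 and 153 FPKM in the libraries of Callus I, 0.303 and 0.134 in those of Callus II, 26.8 and 35.8 in those of Callus III, and 34.0 and 37.3 in those of Leaf. Callus II thus lay below every other library, and the gene fell by 7.13 ± 0.17 from Callus I to Callus II (limma adjusted p = 2.09e-06). Sobic.005G082740.v3.2 (11038374 to 11040287), whose locus overlaps another so that reads of both may be mixed, was at 158 and 124 FPKM in the libraries of Callus I, and no other library exceeded 0.250. It fell by 6.98 ± 0.18 (limma adjusted p = 2.09e-06).

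In the other direction, Sobic.005G129700.v3.2 (56173625 to 56176771) had 0.276 and 0.306 FPKM in the libraries of Callus I, 74.1 and 66.3 in those of Callus II, 7.01 and 11.2 in those of Callus III, and 1.38 and 1.02 in those of Leaf. Callus II was the highest group with no overlap, and the rise was 5.78 ± 0.22 (limma adjusted p = 3.90e-06). The largest rise was that of Sobic.005G080600.v3.2 (10617467 to 10619454), by 7.53 ± 0.31 (limma adjusted p = 4.84e-06).

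The direction of the calls varied along the chromosome. In the leftmost window, from 0 to 5 Mb, 33.9% of 298 tested genes were higher and 24.2% lower. From 5 to 10 Mb 42.6% of tested genes were lower and 27.1% higher, from 10 to 15 Mb 46.0% and 19.0%, from 15 to 20 Mb 40.3% and 23.9%, and from 70 Mb on 41.8% and 24.2%. From 60 to 65 Mb 47.2% were higher and 16.7% lower. That is the direction of all genes, of which 39.1% were higher and 25.4% lower. The split on the chromosome depends on the scaling, as given above, and the windows were not recounted under other scalings. These shares come from the same libraries as the shares of expressed loci and are no separate evidence.

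**Figure D4:**
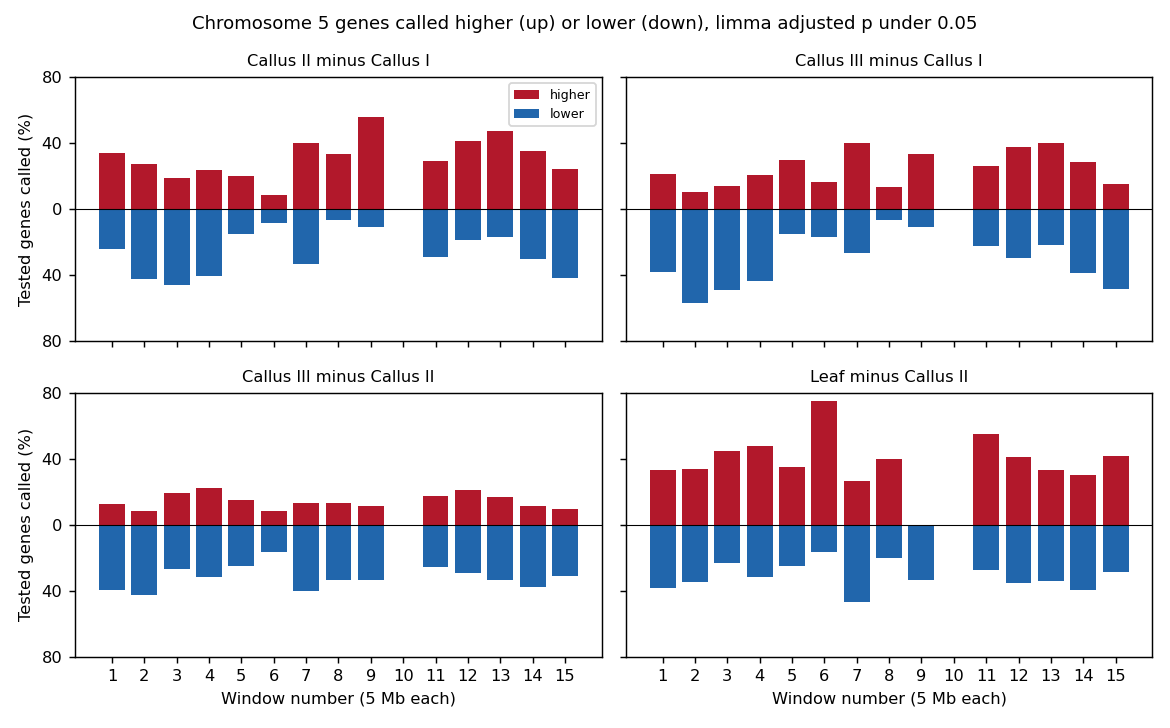
Percent of tested genes called higher (upward) and lower (downward) in each 5 Mb window of chromosome 5, for the 4 comparisons. In Callus II minus Callus I, windows 2, 3, 4 and 15 had more lower than higher calls, with 40.3% to 46.0% lower, and window 13 had 47.2% higher; in Leaf minus Callus II, window 11 had 55.2% higher.

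Callus III against Callus I, which shares the Callus I libraries with the comparison above, gave 770 calls (61.6%, against 60.1% over all genes), 296 higher and 474 lower. Over all genes 26.9% were higher and 33.2% lower. Lower calls prevailed on chromosome 5 also under median-ratio scaling (341 higher, 459 lower) and equal FPKM sums (381 and 409). From 5 to 10 Mb 56.8% of tested genes were lower and 10.3% higher, and from 70 Mb on 48.4% and 15.4%.

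Sobic.005G055300.v3.2 (5579743 to 5580960) had 1.97 and 1.11 FPKM in the libraries of Callus I, 0.0854 and 0 in those of Callus II, 1473 and 1031 in those of Callus III, and 0.804 and 1.02 in those of Leaf. Callus III alone was high, and the gene rose by 8.94 ± 0.23 over Callus I and by 10.21 ± 0.23 over Callus II (limma adjusted p = 7.79e-07 and 5.88e-07). Of the genes lower in Callus III, Sobic.005G050200.v3.2 (4770080 to 4771218) fell by 8.03 ± 0.60 (limma adjusted p = 3.92e-05), and Sobic.005G082740.v3.2 fell by 6.84 ± 0.18 (limma adjusted p = 8.36e-07). Without Callus III replicate 1 the former fell by 7.38, and without replicate 2 it fell by 8.68.

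Callus III against Callus II gave the fewest calls of the 4 comparisons on this chromosome. Of 1249 genes 612 passed, 175 higher and 437 lower in Callus III. That is 49.0%, against 57.3% over all genes, and it was the lowest of the 10 chromosomes, the others lying between 55.3% and 59.0%. The gap was smaller among genes averaging 5 FPKM or more, with 60.2% called on chromosome 5 and 64.2% on the other nine. Over all genes 15.1% were higher and 42.3% lower. The direction rests on the scaling, since the median over all genes was -0.33, and with median-ratio scaling chromosome 5 gave 251 higher and 250 lower. Sobic.005G060200.v3.2 (6213912 to 6217672) had 0.0261 and 0.102 FPKM in the libraries of Callus I, 46.1 and 55.8 in those of Callus II, 0.163 and 0.684 in those of Callus III, and was listed at 0 in Leaf. It was high in Callus II alone and fell by 5.21 ± 0.20 in Callus III (limma adjusted p = 6.03e-06), and Sobic.005G080600.v3.2 fell by 7.17 ± 0.31 (limma adjusted p = 8.84e-06).

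Leaf was compared with Callus II, the tissue it grew from. Of 1249 genes 886 passed (70.9%, against 71.4% over all genes), 461 higher and 425 lower in Leaf. In the genome 32.4% were higher and 39.0% lower. On chromosome 5 higher calls prevailed also under median-ratio scaling (520 against 349) and equal FPKM sums (486 against 392). Under median-ratio scaling they prevailed on the other nine too, with 54.3% of calls higher against 59.8% on chromosome 5. Under equal FPKM sums these shares were 48.8% and 55.4%. Among genes that averaged 5 FPKM or more, lower calls prevailed on chromosome 5 (225 higher, 246 lower). From 50 to 55 Mb 55.2% of tested genes were higher, with a median log2 difference of 1.18 relative to all genes, and from 25 to 30 Mb 9 of 12 were higher.

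Sobic.005G087000.v3.2 (12276884 to 12280209) had 926 and 1112 FPKM in the Leaf libraries and 0.119 to 0.581 in the callus libraries. It was high in Leaf alone and rose by 9.82 ± 0.19 over Callus II (limma adjusted p = 1.55e-07). Sobic.005G042000.v3.2 (3876057 to 3877378) reached 1425 and 1467 FPKM in the Leaf libraries and 11.6 and 10.5 in those of Callus III, was at 0.0441 and 0 in the libraries of Callus I, and was listed at 0 in both Callus II libraries, so no fold is given (limma adjusted p = 9.27e-08). Besides Sobic.005G099000.v3.2, the largest fall was that of Sobic.005G080600.v3.2, by 7.63 ± 0.31 (limma adjusted p = 1.73e-06).

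Called genes that neighbour each other were then followed along the chromosome. A run was at least 5 tested neighbours all called in one direction, where loci that did not meet the rule were passed over. Callus II against Callus I gave 16 runs, 8 in each direction, with 7.69% of tested genes (6.86% on the other nine). There were 9 runs without either Callus II library and 10 with no filter, and under median-ratio scaling 2 were higher and 11 lower. Callus III against Callus I gave 18, of which 13 were lower, with 8.01% of tested genes (5.21% elsewhere). There were 11 without Callus III replicate 1, 9 with no filter and 6 among genes averaging 5 FPKM or more, and with equal FPKM sums 11 were higher and 11 lower. Callus III against Callus II gave 5, of which 4 were lower, with 2.24% of tested genes (6.82% elsewhere). No run was left there without either Callus II library or without Callus III replicate 1, there was 1 with no filter and 2 without either Leaf library, and both scalings gave 2 higher and 0 lower. Leaf against Callus II gave 13, of which 9 were higher, with 7.45% of tested genes (7.70% elsewhere), and 6 among genes averaging 5 FPKM or more. The number of runs is therefore sensitive to single libraries and to the filter. With 57.3% to 71.4% of all genes called in the comparisons, runs occurred on the other chromosomes too, and no test of clustering was made.

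The longest run lower in Callus II covered 10 genes from 10817663 to 11143061 (325 kb). Their median FPKM was 22.04 and 19.6 in the libraries of Callus I, 0.0191 and 0.0797 in those of Callus II, 0.0889 and 0.0827 in those of Callus III, and 0.0316 and 0 in those of Leaf. In Callus I the 10 genes spanned 2.22 to 158 FPKM, and 8 of 10 were under 1 FPKM in both Callus II libraries. Gene 2 in chromosome order was highest in Leaf, at 31.5 and 30.3 FPKM against 21.2 and 20.4 in Callus I. The loci of 3 of the 10 overlap another, and 6 were called when an average of 5 FPKM was required.

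A similar stretch of 6 genes with no overlapping loci lay from 4922850 to 5265448 (343 kb). In Callus I the median of these genes reached 10.4 FPKM in replicate 1 and 8.998 in replicate 2, and in no other library did it exceed 0.141. All 6 genes were at 2.97 to 20.0 FPKM in Callus I, and 5 of 6 were under 1 FPKM in both Callus II libraries. No gene of the 6 averaged 5 FPKM over the 8 libraries, so none was tested under that filter.

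Near the end of the chromosome, 7 genes from 70157941 to 70195403 made up a run lower in Callus II. Their median was 4.55 and 7.47 FPKM in the libraries of Callus I, 0 and 0 in those of Callus II, 0.517 and 0.685 in those of Callus III, and 8.93 and 10.2 in those of Leaf. By this median Callus I and Leaf were both above the other groups, but not all 7 genes were high in Leaf. The first 5, from 70157941 to 70181103, had a median of 0.198 and 0.153 FPKM in the Leaf libraries. Their median was 9.65 and 8.42 in Callus I, and 1.33 and 0.191 in Callus III. Medians high in both Callus I and Leaf were also seen for 5 genes from 14291061 to 14520852. They were 9.69 and 9.99 FPKM in the libraries of Callus I, 1.44 and 1.31 in those of Callus II, 0.419 and 0.486 in those of Callus III, and 9.58 and 9.13 in those of Leaf.

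Among runs that were higher, 9 genes from 66079678 to 66377757 had a median of 33.3 and 25.7 FPKM in the Callus II libraries, against 7.61 and 9.29 in the libraries of Callus I, 10.1 and 12.9 in those of Callus III, and 5.34 and 5.69 in those of Leaf. By this median Callus II lay above all other libraries, and 7 of the 9 were called under median-ratio scaling. Not every gene followed it, since the highest value among the 9 was 211 and 198 FPKM in the Leaf libraries. In the Callus II libraries the highest was 83.0 and 80.5. From 59182733 to 59270081, 6 genes were higher in Leaf than in Callus II, with a median of 5.85 and 5.25 FPKM in the Leaf libraries, 5.50 and 7.32 in those of Callus III and at most 0.344 in each Callus I and Callus II library. Callus III and Leaf were thus high together in that stretch.

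The run with the most genes was higher in Leaf, with 14 genes from 70266948 to 70557858 (291 kb). The median was 13.2 and 12.4 FPKM in the Leaf libraries and 0.103 to 0.643 in the callus libraries. All 14 were at 2.11 to 70.9 FPKM in Leaf, while in callus some genes reached 8.19 FPKM. In Callus I, 6 of the 14 were at 1 FPKM or more in both libraries. Gene 8 in chromosome order was higher in Callus I (5.95 and 6.22 FPKM) than in Leaf (5.05 and 4.52). The loci of 3 of the 14 overlap another, and 5 of the 14 were called when an average of 5 FPKM was required.

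In the gene-poor middle, 6 genes spread over 2694 kb from 26950629 to 29644156 were higher in Leaf. The median was 2.73 and 3.62 FPKM in the Leaf libraries and at most 0.0351 in each callus library. All were at 1.013 FPKM or more in Leaf, 5 of the 6 were under 1 FPKM in every callus library, and the other reached 14.9 FPKM in Callus III. When an average of 5 FPKM was required, 1 of the 6 was called.

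**Figure D5:**
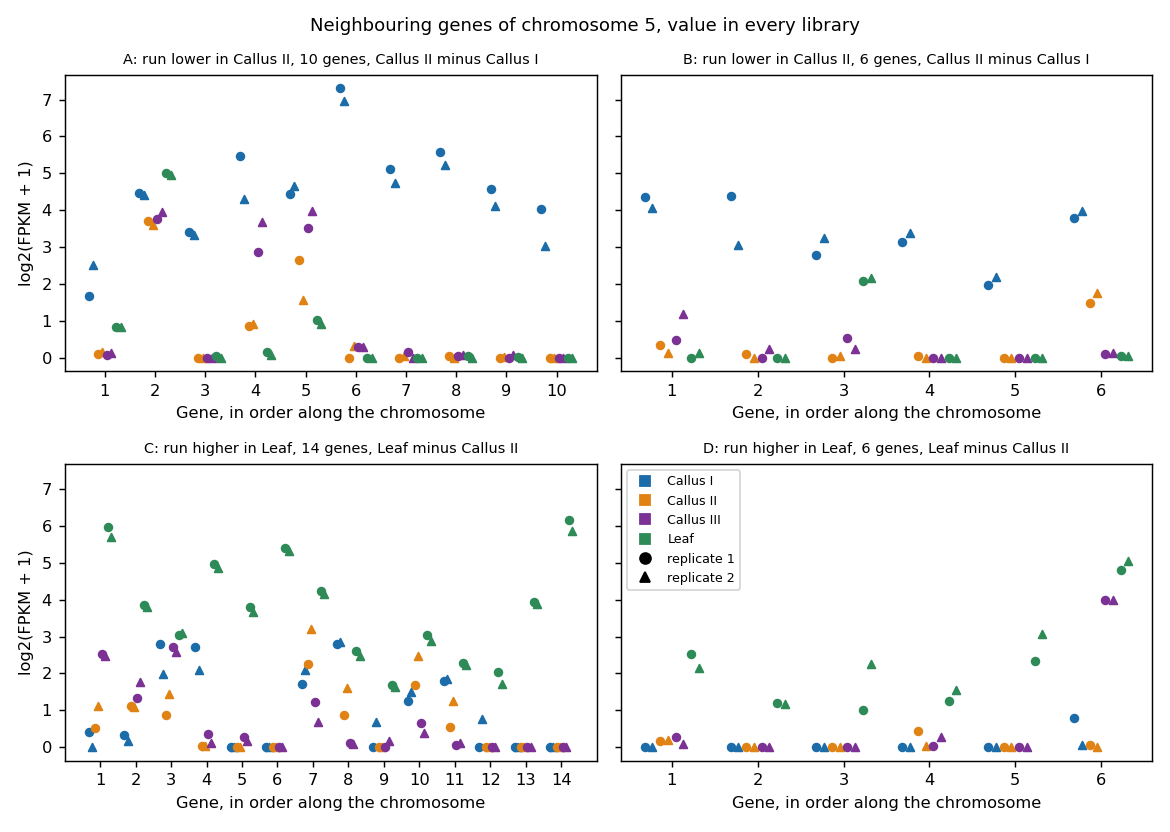
Level of each gene, as log2(FPKM + 1), in 4 runs of neighbouring genes of chromosome 5, in chromosome order, with 1 point per library. The runs of 10 and 6 genes (A and B) are high in Callus I, with some genes also expressed elsewhere, and the runs of 14 and 6 genes (C and D) are high in Leaf. Gene 2 of A is highest in Leaf, and gene 8 of C is highest in Callus I.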

How the data were processed

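The deposited values are FPKM, as the file headers name them, for 34129 loci in each of 8 libraries. Trimmomatic, TopHat2 2.0 and Cuffdiff are listed, with no roles, in the submitters' processing notes. Build, settings and use of strand were not given in the sources used here. Coordinates follow the files, shifted by 1 at the start so that they count from 1. A table of 32945 genes matched 0 identifiers, so gene lists and markers that needed descriptions had no members.

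The log2(FPKM + 1) values of 23166 genes were fitted together (limma 3.58.1 under R 4.3.3), using group means, a variance trend and 2-sided tests. A fold on this scale understates the change of low genes. Measures with 1 value per library were tested by exact permutation over all divisions of the libraries, with Benjamini-Hochberg adjustment over 5 measures or over windows. The scripts were tested on simulated data.

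Named are the 3 most abundant genes per group and, per comparison, the 2 called genes in each direction that differed most, given no overlap between groups and a group average of 10 FPKM or more. Members, lists and rules were chosen with earlier results of these data known, and the stretches described were picked from the runs after their values were seen. Alternatives were other pseudocounts, filters, scalings and windows, a replicate block and leaving out each library.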

Additional observations from a re-analysis of the deposited data

Results flagged for a closer look

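Measures of chromosome 5 with 1 value per library were compared across the 4 groups by an exact permutation test (adjusted p = 0.0381 in each of the following). The share of all loci at 1 FPKM or more, less that on the other nine chromosomes, had a range of 5.43 points between group means, and the chromosome's share of the FPKM sum a range of 3.37 points. The other measures are medians over genes that met the filter, some of them through the group where they were high, so their ranges are given as descriptions and their tests are not read as differences. The median level against the other nine had a range of 0.31 on the log2 scale. The central stretch minus the arms had a range of 0.58, and 0.39 when the same contrast on the other nine chromosomes was subtracted.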

How the results depend on the processing

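The difference across groups in the share of loci at 1 FPKM or more kept its direction and passed in 13 of 13 alternatives, with 5.27 to 5.59 points when single libraries were left out. The share of the FPKM sum had 3.13 to 3.61 points in those runs and missed the threshold without Leaf replicate 2. The measures that follow, windows included, are medians over filtered genes, and their tests are not read as differences. The median level against the other nine missed it with a pseudocount of 0.1 (0.36), median-ratio scaling (0.28) and equal FPKM sums (0.30), was reversed with a mean of at least 5 FPKM (-0.0477), and spanned 0.26 to 0.36 with single libraries left out. Central stretch minus arms missed it with a mean of at least 5 FPKM (0.30), equal sums (0.55), without overlapping loci (0.37) and with a limit of 30 loci per Mb (0.26), and spanned 0.50 to 0.66. Less the other nine, it was reversed with no filter (-0.11) and without overlapping loci (-0.0465), missed the threshold with a mean of at least 5 FPKM (0.35), median-ratio scaling (0.40) and 30 loci per Mb (0.11), and spanned 0.35 to 0.43. Windows whose medians passed numbered 9 of 13, 4 with a mean of at least 5 FPKM, 5 of 7 at 10 Mb, 6 of 23 at 2 Mb, and 0 to 10 with a library left out (0 without Callus I replicate 2 or Leaf replicate 1, where 9 and 8 had an unadjusted exact permutation p under 0.05). With a mean of at least 5 FPKM, where fewer genes are tested, calls numbered 432, 430, 386 and 471 for Callus II and Callus III against Callus I, Callus III against Callus II, and Leaf against Callus II; the split for the last turned to 225 higher and 246 lower. With a library left out the calls spanned 680 to 774, 682 to 761, 460 to 666 and 736 to 914. With no filter the calls between Callus II and Callus I were 422 higher and 458 lower. The same-numbered libraries did not deviate together (correlations of -0.103 to 0.0181). That check cannot exclude that the numbers pair the libraries, which the labels do not say. With a replicate block the calls were 749, 752, 586 and 872. The genes named from the comparisons kept their direction in 254 of 254 alternatives. They were picked from these same libraries by their calls and the size of their differences, so that outcome was largely fixed in advance. Except where the construction is named, the cause was not tested. Depth is unknown, which limits statements on loci near 1 FPKM.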
